A study of Mus musculus with 4 samples.

Results

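The receptors through which cells bind immunoglobulin G (IgG) were followed in RNA of sorted mouse liver macrophages. The 6 genes were taken by name from the 23337 gene names in the deposited tables: Fcgr1, Fcgr3 and Fcgr4 (activating receptors), Fcgr2b (the inhibitory receptor), Fcer1g (the common gamma chain) and Fcgrt (the heavy chain of the neonatal receptor FcRn). All 6 had at least 1 TPM (a level scaled to a fixed sum and corrected for transcript length) in at least 2 libraries and so were among the 12251 genes tested. The study sorted Kupffer cells, macrophages that reside in the liver, from Lyz2cre-RosaYFP reporter mice of both sexes aged 6 to 8 weeks, and compared YFP+ with YFP- cells. All 4 libraries carry the same reporter alleles, in which the Lyz2 (lysozyme) locus drives Cre and Cre in turn activates YFP, a yellow fluorescent protein, from the Rosa locus, so that YFP also marks cells whose precursors made Cre. There were 2 YFP+ and 2 YFP- libraries, and in each group 1 library has a title that begins with M and 1 has a title that begins with FM. The labels give no meaning for these starts and do not say whether the libraries came from separate or pooled animals. The p-values therefore measure only the spread between these libraries, which may be technical. In the test across all genes this spread was taken from genes of similar level and not from each gene alone.

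Fc gamma receptors tie antibody to the cells that act on it: macrophages use them to bind and engulf IgG-coated particles and immune complexes. The activating receptors signal through the immunoreceptor tyrosine-based activation motif (ITAM) of the Fcer1g gamma chain, which recruits the kinase Syk, while Fcgr2b carries an inhibitory motif that recruits the phosphatase SHIP1, and the balance of both sets the threshold of the response. FcRn, built from Fcgrt and beta-2-microglobulin (B2m), works inside the cell and returns IgG and albumin from endosomes to the blood. In liver, Kupffer cells and sinusoidal endothelial cells both take up immune complexes, and the endothelium is known for high Fcgr2b.

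TPM sums to 1000000 in each library, and the median change of all tested genes (YFP+ minus YFP-, log2(TPM + 1) scale) was -1.73, with -1.01 within the M pair of libraries and -2.48 within the FM pair. The 100 most abundant genes held 54.0% and 66.1% of TPM in the YFP+ libraries against 40.9% and 29.7% in the YFP- libraries (M before FM here and throughout). Read depth is unknown; mean coverage of a gene at 1 FPKM (fragments per kilobase, scaled to sequencing depth), a measure of relative depth, ranged from 2.59 to 9.19. The label of the cells was checked against markers: 12 Kupffer cell genes summed to 43644 and 40610 TPM in YFP+ and 7548 and 14263 TPM in YFP-. Of these, 6 were called higher, beside 0.522% of all tested genes. The change was positive for 10 of the 12 and negative for Slc40a1 (-0.20) and C6 (-0.48). The called genes Marco, Fcna, Cd5l and Folr2 did not pass under quantile normalization or cyclic loess, which are alternative scalings. Another 12 genes that mark microglia, the macrophages of the brain, summed to 1295 and 123 TPM in YFP+ and 22037 and 19731 TPM in YFP-. All 12 were called lower in YFP+, beside 39.5% of all tested genes. No gene of either list was at 0 in any library, so the YFP- libraries labelled liver macrophage carry microglial transcripts beside Kupffer cell transcripts. In such bulk RNA, fewer cells of a type and less RNA per cell cannot be told apart.

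The members on chromosome 1 are neighbours. In the files' coordinates (GRCm38) Fcgr2b lies at chr1:170960559-170976071 on the minus strand, Fcgr4 at chr1:171018926-171029761 on the plus strand, Fcgr3 at chr1:171051169-171059403 on the minus strand and Fcer1g at chr1:171229572-171234349 on the minus strand, a span of 273791 bases. Fcgr1 lies at chr3:96282909-96293969 and Fcgrt at chr7:45092993-45103822, both on the minus strand. No other gene in the files overlaps any of the 6. Fcgr2b and Fcgr3, an inhibitory and an activating receptor, are the closest pair in sequence: their coding sequences (GENCODE M21, GRCm38) were identical at 85.9% of aligned bases, against 60.5% to 66.2% for the other pairs of Fc gamma receptors. Their longest identical run was 129 bases, against at most 14 bases for those other pairs. That run and the 20 coding bases on either side are shown because reads that lie wholly within it cannot be assigned to 1 of the 2 genes. Capitals mark the 2 differing bases, which bound the run. The stretch crosses from exon 3 to exon 4, at chr1:170967980-170968101 and chr1:170966654-170966700 in Fcgr2b and at chr1:171057691-171057812 and chr1:171054147-171054193 in Fcgr3.
Fcgr2b: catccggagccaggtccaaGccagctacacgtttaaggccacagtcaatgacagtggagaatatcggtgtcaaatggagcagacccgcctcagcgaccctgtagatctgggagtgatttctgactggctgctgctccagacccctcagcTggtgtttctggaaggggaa
Fcgr3: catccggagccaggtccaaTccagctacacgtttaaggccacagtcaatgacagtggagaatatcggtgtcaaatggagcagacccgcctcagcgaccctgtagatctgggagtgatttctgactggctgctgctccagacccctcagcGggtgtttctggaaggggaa
Of the 921 windows of 100 bases in the Fcgr2b coding sequence, 44 (4.78%) occur unchanged in Fcgr3. For reads of that length without mismatches, the split between Fcgr2b and Fcgr3 is uncertain over that part of the Fcgr2b coding sequence. Other read lengths, reads aligned with mismatches and sequence outside the coding part were not compared. The levels of Fcgr2b and Fcgr3 below carry that uncertainty, and its part in the results was not tested.

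The members differed in direction. Fcgr2b was 8.23-fold lower in YFP+ by the ratio of mean TPM and fell by 3.07 on the log2 scale, Fcer1g was 2.67-fold higher and passed the test, and Fcgr4 was 3.24-fold higher without passing it. Fcgr1, Fcgr3 and Fcgrt did not pass. In the test across all genes (limma, Benjamini-Hochberg adjusted p under 0.05), 1 of 6 members was called higher, against 0.522% of all tested genes, and 1 of 6 was called lower, against 39.5%. The libraries of the groups did not overlap for 5 of the 6: 2 were higher in both YFP+ libraries, against 2.5% of all tested genes, and 3 were lower in both, against 79.7%. The members' median change was -0.15, beside -1.73 over all tested genes.

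**Figure D1:**
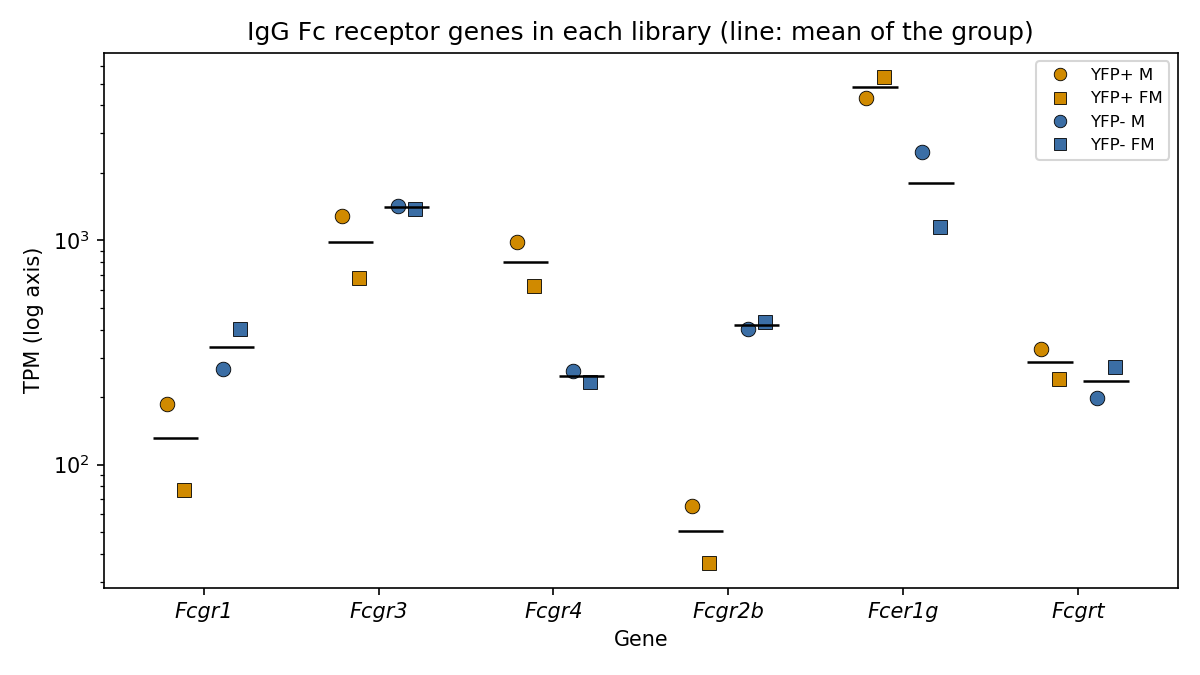
TPM (log axis) of the 6 genes in each of the 4 libraries. Circles are M libraries, squares are FM libraries, YFP+ is orange, YFP- is blue, and lines are group means. Fcgr2b lies lowest in YFP+ at 36.3 and 65.3 TPM, while Fcgr4 and Fcer1g are higher in both YFP+ libraries than in either YFP- library.

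Among the activating receptors, Fcgr4, a receptor for IgG2a and IgG2b, stood at 981.5 and 625.5 TPM in the YFP+ libraries and at 262.3 and 233.2 TPM in the YFP- libraries. Both YFP+ libraries lay above both YFP- libraries, with means of 803 ± 252 and 247.7 ± 20.6 TPM (SD, n = 2 each). The difference was 1.66 (log2, SE 0.81; limma, adjusted p = 0.0803), and within the title starts it was 1.90 (M) and 1.42 (FM). It was positive under all 13 alternative settings (1.34 to 3.95) and passed under 2 of them, median-ratio scaling (3.95, adjusted p = 0.0140) and FPKM in place of TPM (2.20, adjusted p = 0.0239). Fcgr3, a low-affinity receptor that binds immune complexes, was the most abundant receptor in every library, at 1286 and 680.1 TPM in YFP+ and 1427 and 1382 TPM in YFP-. The YFP+ M library lay close to the YFP- pair and the YFP+ FM library stood apart below it. The Fcgr3 difference was -0.59 (SE 0.72, adjusted p = 0.480), -0.15 within M and -1.02 within FM, and it turned to 1.71 under median-ratio scaling. Fcgr1, the high-affinity receptor that binds single IgG molecules, stood at 186 and 77.5 TPM in YFP+ and at 266 and 404 TPM in YFP-. Here too both YFP+ libraries were lower, and the groups did not overlap. The Fcgr1 difference was -1.44 (SE 0.88, adjusted p = 0.161), -0.51 within M and -2.37 within FM, and it turned to 0.85 under median-ratio scaling. Counted against all tested genes within a library, Fcgr3 ranked from 85 to 219, while Fcgr4 ranked 178 and 230 in YFP+ and 512 and 684 in YFP-.

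Fcgr2b, the inhibitory receptor, stood at 65.3 and 36.3 TPM in YFP+ and at 401.5 and 434.1 TPM in YFP-. The YFP- values lay close together, the YFP+ M value was above the YFP+ FM value, and both YFP+ libraries lay far below both YFP- libraries, with means of 50.8 ± 20.5 and 417.8 ± 23.0 TPM (SD, n = 2 each). Fcgr2b ranked 1266 and 1181 among tested genes in YFP+ and 336 and 349 in YFP-. The difference was -3.07 (log2, SE 0.91; limma, adjusted p = 0.00555), with -2.60 within M and -3.54 within FM, and it stood at -1.34 relative to the median of all tested genes. It was negative under all 13 alternatives (-3.49 to -0.79) and passed under 6. The call was lost under quantile normalization (-2.24, adjusted p = 0.0719), median-ratio scaling (-0.79, adjusted p = 0.434) and cyclic loess (-2.31, adjusted p = 0.0708). It was also lost with the title start as a block (adjusted p = 0.0515) and without the YFP- M library (adjusted p = 0.0510), the YFP- FM library (adjusted p = 0.0846) or the YFP+ FM library (-2.66, adjusted p = 0.0948). Mean coverage of Fcgr2b was 197 and 70.3 reads per base in YFP+ and 2018 and 451 in YFP-.

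Marker lists of other cells known to make Fcgr2b also had lower sums in YFP+. Beside the microglia genes given above, 9 genes of liver sinusoidal endothelium summed to 280 and 164 TPM in YFP+ and 566 and 596 TPM in YFP-, with 0 called higher and 3 called lower (0 and 5 at unadjusted p under 0.05). The genes of B and plasma cells summed to 570 and 93.7 TPM in YFP+ and 735 and 674 TPM in YFP-, with 0 of 6 tested called higher and 2 called lower (0 and 3 at unadjusted p under 0.05). Over all tested genes, 0.522% were called higher and 39.5% lower, and 79.7% were lower in both YFP+ libraries. No gene of these lists was at 0 in any library. The part of these cell types in the Fcgr2b difference was not tested.

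Ratios within a library do not depend on scaling between libraries. Summed over Fcgr1, Fcgr2b, Fcgr3 and Fcgr4, receptor TPM was 2519 and 1419 in YFP+ and 2357 and 2453 in YFP-, so the YFP+ M library lay above and the YFP+ FM library below both YFP- libraries. Fcgr2b made up 2.59% and 2.56% of this sum in YFP+ and 17.0% and 17.7% in YFP-, that is 2.58% ± 0.0225 against 17.4% ± 0.469 (SD, n = 2 each). Fcgr4 made up 39.0% and 44.1% in YFP+ and 11.1% and 9.51% in YFP-. The higher share of Fcgr4 and the lower share of Fcgr2b were seen in both YFP+ libraries against both YFP- libraries. Fcgr3 held 51.1% and 47.9% in YFP+ and 60.5% and 56.3% in YFP-. Fcgr1 held 7.39% and 5.46% in YFP+ and 11.3% and 16.5% in YFP-. Among the 3 activating receptors alone, Fcgr4 held 40.0% and 45.2% in YFP+ and 13.4% and 11.6% in YFP-. None of these shares overlapped between the groups, and for each the exact permutation test over libraries (two-sided) gave 0.333, the smallest p that 2 against 2 libraries allow (0.333 after adjustment over 7 shares). The 7 shares are built from the same few genes and add up to fixed totals, so they are not separate observations. Ratios within a library did not overlap between the groups for 58.2% of all pairs of genes with at least 1 TPM in every library.

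**Figure D2:**
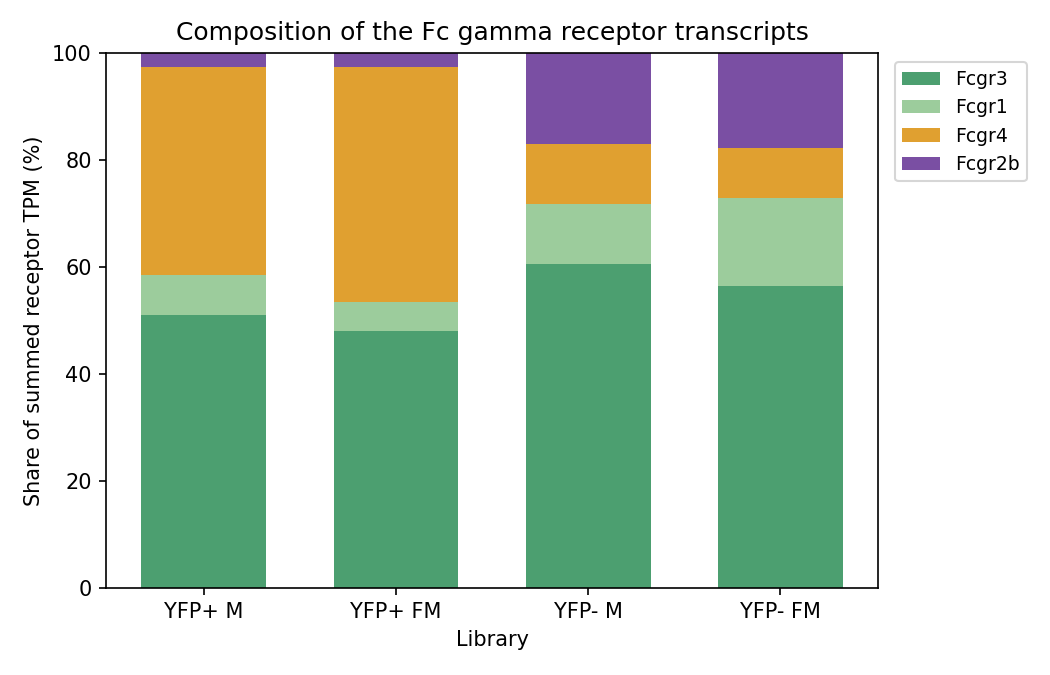
Share (%) of each Fc gamma receptor in the summed TPM of Fcgr1, Fcgr2b, Fcgr3 and Fcgr4, 1 bar per library. The 2 bars of a group are alike: Fcgr2b is 2.56% to 2.59% in YFP+ and 17.0% to 17.7% in YFP-, and Fcgr4 is 39.0% to 44.1% in YFP+ and 9.51% to 11.1% in YFP-.

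The balance of inhibitory to activating receptor RNA differed little between the libraries of a group. For each TPM of Fcgr2b there were 37.6 and 38.1 TPM of activating receptors in YFP+ and 4.87 and 4.65 TPM in YFP-. On the log2 scale the ratio of Fcgr2b to the activating sum was -5.24 ± 0.013 in YFP+ and -2.25 ± 0.047 in YFP- (SD, n = 2 each). The difference of -2.99 is a 7.95-fold lower ratio, it was -2.95 within M and -3.03 within FM, and the exact permutation p was 0.333 (two-sided, 0.5 adjusted over 3 ratios). The pair furthest apart was Fcgr2b and Fcgr4: the log2 ratio of Fcgr2b to Fcgr4 was -3.91 and -4.11 in YFP+ and 0.61 and 0.90 in YFP-, so Fcgr4 was the more abundant in YFP+ and Fcgr2b in YFP-. This ratio differed by -4.76 between the groups. The closely related Fcgr2b and Fcgr3 differed by -2.51 in log2 ratio (SD 0.05 in YFP+ and 0.11 in YFP-). Fcgr3 over Fcgr4, 2 activating receptors, was 1.31 and 1.09 in YFP+ and 5.44 and 5.93 in YFP-. Over the 15 pairs of members, 14 had ratios that did not overlap between the groups, against 58.2% of all pairs of genes with at least 1 TPM in every library, and 8 differed by over 2 on the log2 scale, against 24.5%. The 15 pairs are built from only 6 genes, and 5 of the 14 pairs include Fcgr2b, so they are not separate observations. The pair that overlapped was Fcgr4 and Fcer1g, and the exact permutation p of the other 14 pairs was 0.333 each (0.357 adjusted over 15 pairs).

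**Figure D3:**
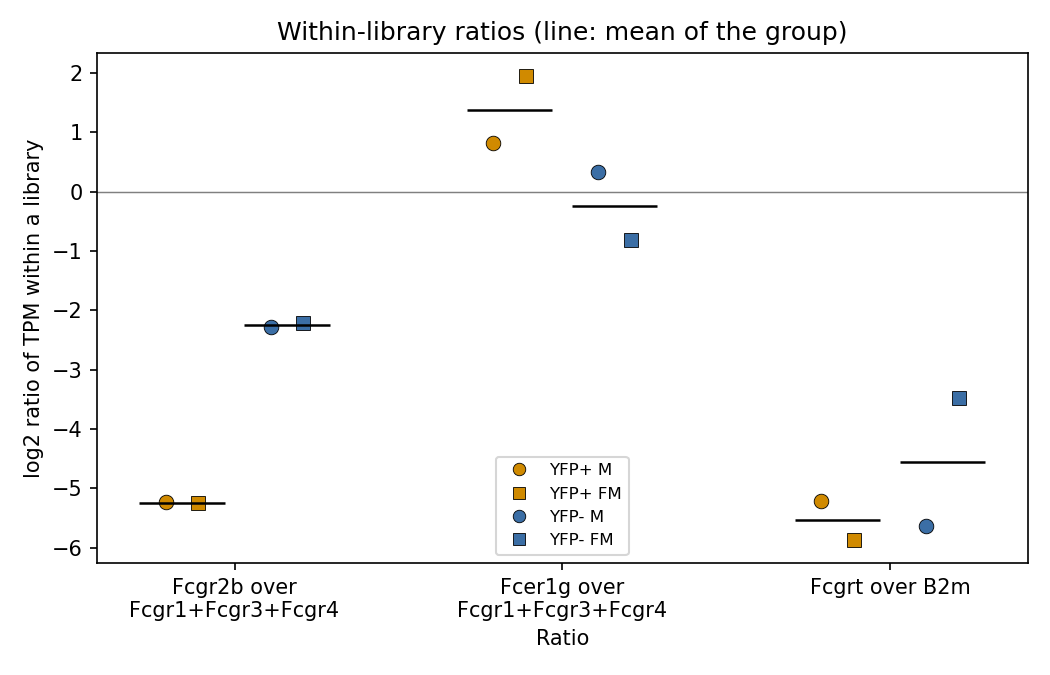
log2 ratio of TPM within a library for Fcgr2b over the activating receptors, Fcer1g over the activating receptors and Fcgrt over B2m. Points are libraries and lines are group means. The points of a group nearly coincide for Fcgr2b (means -5.24 and -2.25), are spread for Fcer1g, and overlap between groups for Fcgrt over B2m.

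Fcer1g, the gamma chain that the activating receptors need for signalling and surface display, stood at 4324 and 5337 TPM in YFP+ and at 2473 and 1149 TPM in YFP-. It was among the most abundant transcripts in YFP+, at ranks 44 and 40 of the tested genes, and ranked 73 and 114 in YFP-. The groups did not overlap, with means of 4830 ± 717 and 1811 ± 936 TPM (SD, n = 2 each). Fcer1g rose by 1.51 (log2, SE 0.64; limma, adjusted p = 0.0483), with 0.81 within M and 2.21 within FM. The difference was positive under all 13 alternatives (0.48 to 3.81), but the call held under only 3: FPKM, genes on a single row and without the YFP- M library (adjusted p = 0.000367). The other 3 libraries each ended the call when left out: without YFP+ M the adjusted p was 0.219, without YFP+ FM 0.415 and without YFP- FM 0.121. Per TPM of activating receptors there were 1.76 and 3.86 TPM of Fcer1g in YFP+ and 1.26 and 0.569 TPM in YFP-. The log2 ratio differed by 1.62, but by 0.48 within M and 2.76 within FM (exact permutation p = 0.333, two-sided, 0.5 adjusted over 3 ratios).

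Other blood cells make activating receptors and the gamma chain as well. Monocyte markers summed to 1245 and 2754 TPM in YFP+ and 1897 and 1230 TPM in YFP-, with 0 of 7 tested called higher (0 at unadjusted p under 0.05) and 4 called lower. Neutrophil markers summed to 1623 and 7095 TPM in YFP+ and 2185 and 4315 TPM in YFP-, with 0 of 9 called higher (0 at unadjusted p under 0.05) and 1 called lower. Both sums were higher in YFP+ within FM and lower within M. The rise within FM came from Plac8 among the monocyte genes (2574 TPM in YFP+ against 391 TPM in YFP-). Among the neutrophil genes it came from S100a8 (1542 against 717 TPM) and S100a9 (4874 against 1595 TPM). Every other gene of both lists was lower in the YFP+ FM library than in the YFP- FM library. T and natural killer cell markers summed to 208 and 137 TPM in YFP+ and 1410 and 638 TPM in YFP-, with 6 of 10 called lower. Beside these counts, 0.522% of all tested genes were called higher and 39.5% lower. No gene of these 3 lists was at 0 in any library, and their part in the differences of Fcgr3, Fcgr4 and Fcer1g was not tested.

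Tyrobp, the ITAM adaptor of other myeloid receptors such as Trem2, was called in the same direction, at 8701 and 12597 TPM in YFP+ and 3561 and 1792 TPM in YFP- (2.05, adjusted p = 0.00463). Among the 8 tested genes listed as ITAM adaptors other than Fcer1g, 1 was called higher and 2 were called lower (0.522% and 39.5% of all tested genes), the T cell genes Cd3e (-2.80, adjusted p = 0.0367) and Cd3g (-2.61, adjusted p = 0.0409). Hcst, 1 of the 8, encodes an adaptor without an ITAM and was not called (-0.45, adjusted p = 0.697). A further list was drawn up as receptors that use Fcer1g, but pairing with Fcer1g is not established for its members Pilrb1, Pilrb2 and Nkg7. The only gene of this list higher at unadjusted p under 0.05 was Pilrb1 (1.90, limma, unadjusted p = 0.0305). Of its 15 tested genes, 0 were called higher and 2 were called lower, a smaller share than the 39.5% of all tested genes, with a list median of -0.75. The genes called lower were Clec4e, which binds a mycobacterial glycolipid (-3.23, adjusted p = 0.0194), and Ncr1, a receptor of natural killer cells (-2.63, adjusted p = 0.0409).

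Fcgrt differed little. It stood at 329.2 and 242.1 TPM in YFP+ and at 197.6 and 273.5 TPM in YFP-. The groups overlapped: YFP+ was higher of the M libraries and lower of the FM libraries, by 0.73 and -0.18 on the log2 scale. The Fcgrt difference over the groups was 0.28 (SE 0.86; limma, adjusted p = 0.782), and it passed under median-ratio scaling only (2.57, adjusted p = 0.0480). B2m, its light chain, which is shared with MHC class I, stood at 12127 and 14154 TPM in YFP+ and at 9828 and 3038 TPM in YFP-. Its difference was 1.26 (adjusted p = 0.0573) and turned to -0.41 under cyclic loess. The log2 ratio of Fcgrt to B2m was -5.20 and -5.87 in YFP+ and -5.64 and -3.47 in YFP-. The groups overlapped in this ratio, which differed by -0.98 (exact permutation p = 0.667, two-sided, 0.667 adjusted over 3 ratios), and the YFP- FM library set the sign: the difference was 0.10 without it. Alb, the other cargo of FcRn and a hepatocyte gene, was at 156 and 378 TPM in YFP+ and 183 and 1066 TPM in YFP- (-0.86, adjusted p = 0.372), with a sign that turned under median-ratio scaling (1.43) and without the YFP- FM library.

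How many genes of the whole table passed depended strongly on the setting, and the members' calls stand beside these shares. Of all tested genes, 1.21% were called higher and 1.67% lower under quantile normalization, 5.62% and 5.9% under median-ratio scaling, and 0.531% and 0.327% under cyclic loess, the settings under which Fcgr2b did not pass. With FPKM, where Fcgr2b, Fcgr4 and Fcer1g passed, 1.02% were called higher and 30.8% lower. With the title start as a block, where no member passed, 0.188% were called higher and 14.1% lower. The shares were 0.416% and 25.1% with a pseudocount of 0.1, 0.346% and 28.7% without a filter, 0.621% and 31.6% with a filter at 5 TPM, and 0.516% and 39.5% for genes on a single row, and Fcgr2b passed under each of these. Leaving out the YFP+ M library, where Fcgr2b alone passed, gave 0.367% and 67.5%. Leaving out the YFP- M library, where Fcer1g alone passed, gave 0.857% and 11.5%. Leaving out the YFP+ FM library (0.114% and 7.06%) or the YFP- FM library (0.457% and 7.56%) left no member past the threshold.

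**Figure D4:**
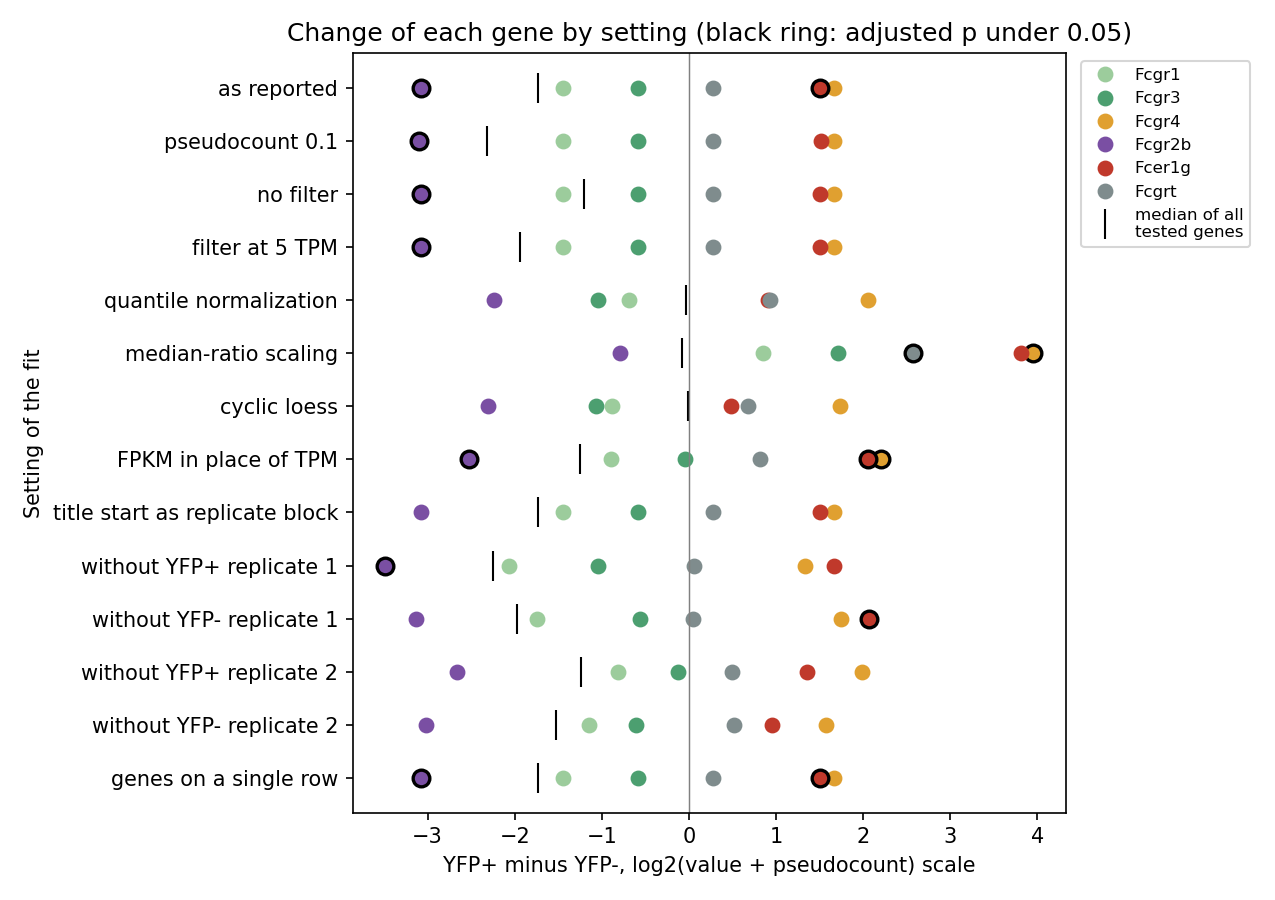
Change of each gene (YFP+ minus YFP-, log2 scale) under the reported setting and 13 alternatives, with a ring where the adjusted p was under 0.05 and a black tick at the median of all tested genes. Replicate 1 is the M library and replicate 2 the FM library of a group. Fcgr2b is always the lowest of the 6 and negative (-3.49 to -0.79), and Fcgr4, Fcer1g and Fcgrt are always positive, while Fcgr1 and Fcgr3 turn positive under median-ratio scaling.

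Genes of the pathway downstream of the receptors were taken from lists of known function. Of 26 kinases and adaptors close to the receptors, 0 were called higher (0 at unadjusted p under 0.05) and 10 were called lower, beside 0.522% and 39.5% of all tested genes, and the list median was -1.96 beside -1.73 over all genes. That count is close to the share over the whole table. The adaptor Blnk was at 22.1 and 2.64 TPM in YFP+ and 219 and 138 TPM in YFP- (-4.26, adjusted p = 0.000842). The phosphoinositide kinase subunit Pik3cb (-1.61, adjusted p = 0.00247), the exchange factor Vav3 (-2.31, adjusted p = 0.00304) and the kinase Tec (-3.23, adjusted p = 0.00684) followed. Syk, the kinase recruited by the gamma chain, did not pass and was named after its values were seen: 105 and 39.6 TPM in YFP+ against 81.2 and 230 TPM in YFP- (-1.07, adjusted p = 0.331), with a sign that turned under quantile normalization and median-ratio scaling. Of 15 inhibitory phosphatases and adaptors, 0 were called higher (0 at unadjusted p under 0.05) and 3 were called lower, a smaller share than the 39.5% of all tested genes, with a list median of -1.06. Inpp5d, which encodes SHIP1, the phosphatase that Fcgr2b recruits, was at 58.9 and 21.2 TPM in YFP+ and 257 and 415 TPM in YFP- (-3.17, adjusted p = 0.00550). The ubiquitin ligase Cblb changed by -2.51 (adjusted p = 0.0444), and Sirpa, the receptor for the CD47 signal on other cells, changed by -1.89 (adjusted p = 0.0445) but turned to 0.41 under median-ratio scaling.

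Of 28 tested genes of the phagocytic cytoskeleton, 0 were called higher (1 at unadjusted p under 0.05) and 5 were called lower, a smaller share than the 39.5% of all tested genes, with a list median of -1.47. Those called include Elmo1 (-3.93, adjusted p = 0.00232), Pld1 (-3.10, adjusted p = 0.0203), Rac1 (-2.55, adjusted p = 0.0258) and Dock2 (-2.57, adjusted p = 0.0291). Elmo1 and Dock2 encode partners that activate Rac1. Of the 5 subunits of the phagocyte NADPH oxidase, 1 was called higher and 0 lower (1 lower at unadjusted p under 0.05). Over all tested genes the shares were 0.522% and 39.5%. The called gene was Cyba, a membrane subunit, at 1799 and 3234 TPM in YFP+ and 849 and 594 TPM in YFP- (1.76, adjusted p = 0.0373). Of 5 tested other Fc receptors and Fc receptor-like genes, 0 were called higher (0 at unadjusted p under 0.05) and 2 lower (39.5% of all tested genes), the B cell genes Fcrl1 (-2.46, adjusted p = 0.04998) and Fcrl5 (-1.26, adjusted p = 0.00894; sign turned under quantile normalization and cyclic loess). Among the receptor chains for IgE other than Fcer1g, Fcer1a was at most 0.107 TPM and Ms4a2 was listed at 0 in all 4 libraries. Fcer2a was at 19.3 and 1.57 TPM in YFP+ and 15.6 and 45.9 TPM in YFP- (-1.95, adjusted p = 0.141). Of 10 regulators known to act on Fc receptor genes, 0 were called higher (0 at unadjusted p under 0.05) and 3 lower (39.5% of all tested genes; list median -1.16), namely Gabpa (-2.60, adjusted p = 0.0133), Elf1 (-3.02, adjusted p = 0.0273) and Gfi1 (-1.44, adjusted p = 0.0191; sign turned under quantile normalization and cyclic loess). The called genes named in the account of the pathway, from Tyrobp on, did not pass under quantile normalization or cyclic loess, where the adjusted p ranged upward from 0.0564 for Elmo1.

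**Figure D5:**
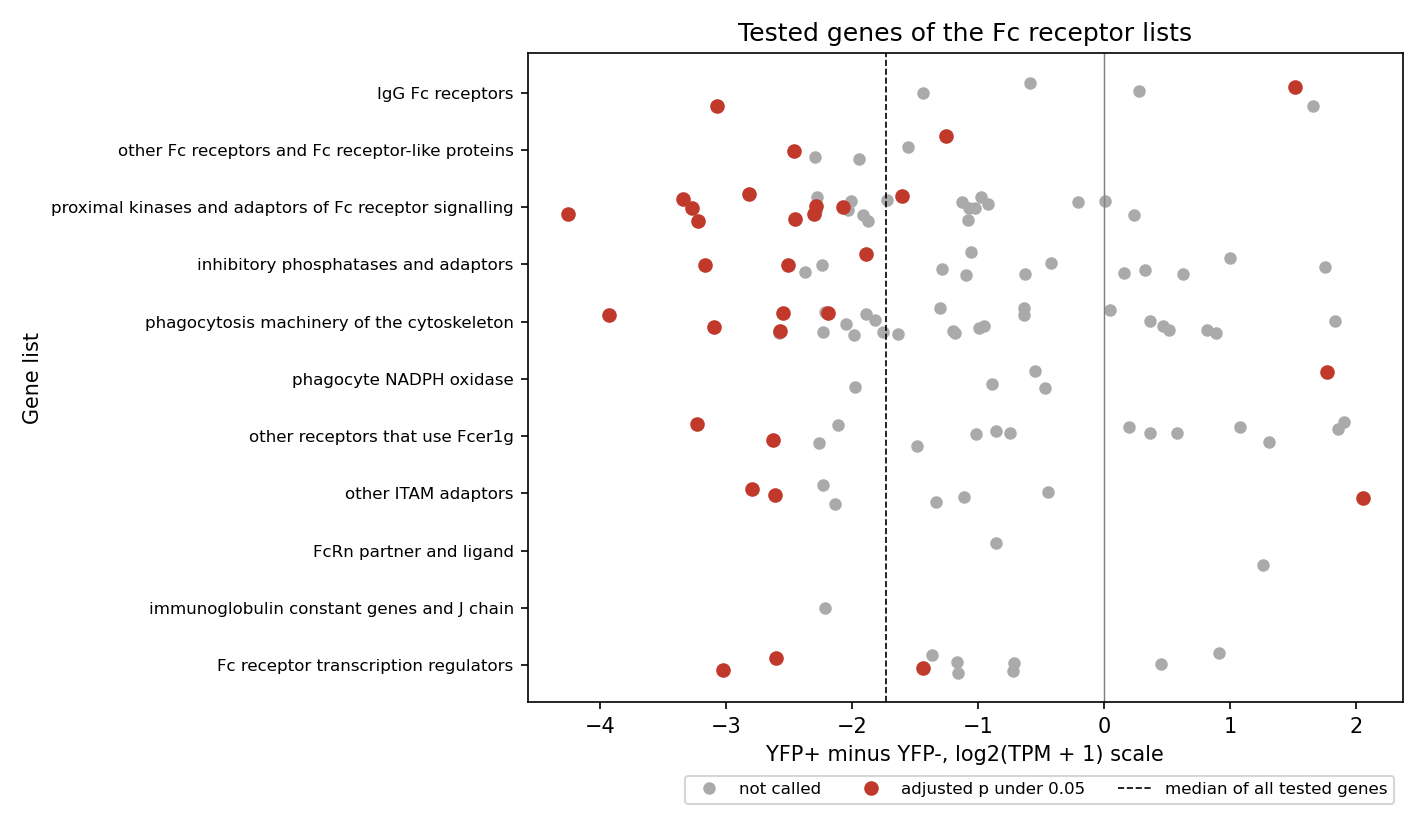
Change (YFP+ minus YFP-, log2(TPM + 1) scale) of every tested gene of the Fc receptor lists, 1 point per gene, red where the adjusted p was under 0.05. The dashed line is the median of all tested genes (-1.73). Most called genes lie left of 0, and Fcer1g, Cyba and Tyrobp are the called genes to its right.

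The neighbouring genes on chromosome 1 differed in the sign of their change. Fcgr2b, Fcgr4, Fcgr3 and Fcer1g lie with gaps of 42854, 21407 and 170168 bases and had changes of -3.07, 1.66, -0.59 and 1.51 in that order. Of 18 other genes within 100 kb of this region, 14 were tested, with a median change of -1.74. Of these, 0 were called higher (0 at unadjusted p under 0.05). The 2 called lower were a smaller share than the 39.5% of all tested genes. Pcp4l1, between Fcgr3 and Fcer1g, was at 7.23 and 0.515 TPM in YFP+ and 160 and 99.7 TPM in YFP- (-5.17, adjusted p = 0.000243). The other called neighbour was Atf6, a sensor of protein folding stress (-2.74, adjusted p = 0.0391).

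The stretches of 250 bases before the RefSeq starts (GRCm38.p6) of Fcgr2b and Fcgr4 are shown because these neighbours differed most in their change. The motif GAGGAA, a core that factors of the PU.1 group bind, was searched on both strands, and capitals mark a match. Fcgr2b is chr1:170976072-170976321 on the minus strand and Fcgr4 is chr1:171018676-171018925 on the plus strand.
Fcgr2b: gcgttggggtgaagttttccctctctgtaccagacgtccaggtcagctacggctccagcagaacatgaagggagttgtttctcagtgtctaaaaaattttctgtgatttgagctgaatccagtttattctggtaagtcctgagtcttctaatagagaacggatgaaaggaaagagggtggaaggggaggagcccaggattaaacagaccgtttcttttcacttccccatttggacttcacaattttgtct
Fcgr4: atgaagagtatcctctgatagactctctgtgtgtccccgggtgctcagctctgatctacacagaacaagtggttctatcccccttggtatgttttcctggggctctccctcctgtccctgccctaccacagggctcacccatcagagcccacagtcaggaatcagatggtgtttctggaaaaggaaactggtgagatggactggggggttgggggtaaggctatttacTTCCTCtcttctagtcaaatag
GAGGAA matched 1 time in Fcgr4, as its reverse complement TTCCTC, and 0 times in Fcgr2b. It also matched 1 time each in Fcgr3 and Fcgr1 and 0 times in Fcer1g and Fcgrt, and 23.3% of 32851 promoters of the same length hold it. The motif TTCNNNGAA, the core bound by STAT factors, matched 1 time in Fcgr1 and in none of the other 5, and 7.02% of promoters hold it. These are letter matches in 1 window and not sites shown to be bound. Sfpi1, the older symbol of Spi1, which encodes PU.1, was named after its values were seen: 578 and 834 TPM in YFP+ against 280 and 484 TPM in YFP- (0.91, adjusted p = 0.320).

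Profiles over the 4 libraries were compared by Euclidean distance of centred log2(TPM + 1) among 2146 genes with a mean of at least 50 TPM, as a description. Nearest to Fcgr2b were Alas1, the first enzyme of heme synthesis (distance 0.248), Evi2a (0.265) and Rogdi (0.454). Alas1 was at 19.3 and 8.37 TPM in YFP+ and 109 and 133 TPM in YFP-. Nearest to Fcgr4 were the lysosomal protease gene Ctsh (0.376), Il18bp, which encodes the decoy of interleukin 18 (0.397), and Clec1b, a gene of the Kupffer cell marker list (0.430). Nearest to Fcer1g were the actin-binding peptide gene Tmsb4x (0.129), the ferritin gene Fth1 (0.194) and the ribosomal gene Rps28 (0.225). Fcgr3 lay nearest to Rhoa (0.0777), Eef1g (0.0819) and Cd47 (0.112). Fcgr1 lay nearest to Phc2 (0.00761), Eif3d (0.0854) and Tor2a (0.0941), and Rasgrp2 (0.0773) and Nupr1 (0.140) were among the 3 nearest to Fcgrt.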

How the data were processed

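RNA of 4 libraries, 2 YFP+ and 2 YFP- by the genotype label, was analysed from 1 gene table per library. Per the file headers, the authors deposited mean read coverage, FPKM and TPM for each gene. Per the submitters' processing notes, reads were aligned with HISAT (no version) to GRCm38 or mm10; the abundance program, library kit and strand were not given in the sources used here. Rows of 1 gene name were summed (166 names, 0 of them members). The test took genes that reached 1 TPM in 2 or more libraries, as log2(TPM + 1), so fold changes of low genes are understated, with limma (version 3.58.1, R 4.3.3; moderated by empirical Bayes along a mean trend, two-sided) and Benjamini-Hochberg adjustment over all 12251 genes at 0.05. Standard errors are limma's moderated ones. The weight limma gave to the spread shared by genes of similar level (prior degrees of freedom) was infinite in the main fit. Each standard error there is thus that shared value and not the gene's own spread. The weight was finite under quantile normalization (6.87), median-ratio scaling (16.2), cyclic loess (5.56) and without a filter (24.0). Adjusted p-values of those settings are therefore not on the same footing. Single values were tested by an exact permutation test over libraries, where the smallest p is 0.333. The deposited coverage served as a measure of relative depth only.

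The members and lists were chosen with earlier results of these data known. Of 269 list entries, 254 were named in the files, 8 of them through an older symbol. Named genes are the 6 members, up to 4 genes per list (the smallest adjusted p, or, where none was called, the highest mean TPM), the 3 nearest profiles per member and genes within 100 kb. A few genes taken by this rule are not reported here. Syk and Sfpi1 were added to these after their values were seen. Alternatives were 3 scalings (quantile, median-ratio, cyclic loess), FPKM, a pseudocount of 0.1, a minimum of 5 TPM or none, genes on a single row, a block for the title start, and leaving out each library. The fit was tested on simulated data. Promoter sequence came from RefSeq (GRCm38.p6), where all 6 members had an entry, and coding sequence from GENCODE M21, aligned with Biopython 1.88. Tables, permutation tests and plots were made with pandas 2.3.3 and NumPy 2.4.6, with SciPy 1.17.1, and with matplotlib 3.10.9, under Python 3.11.15.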

Additional observations from a re-analysis of the deposited data

Results flagged for a closer look

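Fcgrt differed in opposite directions in the M and the FM libraries: YFP+ minus YFP- was 0.73 on the log2(TPM + 1) scale between the M libraries and -0.18 between the FM libraries. With 1 library of each kind per group, this difference was not tested.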

How the results depend on the processing

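All 6 members kept their direction under the 13 alternatives except Fcgr1 (0.85) and Fcgr3 (1.71), which turned positive under median-ratio scaling. The number of members called higher, 1 as reported, was 2 under median-ratio scaling and with FPKM. It was 0 with a pseudocount of 0.1, without a filter, with a filter at 5 TPM, under quantile normalization and cyclic loess, and with the replicate block, and ranged from 0 to 1 when each library was left out. The number called lower, 1 as reported, was 0 under quantile normalization, median-ratio scaling, cyclic loess and the replicate block, and ranged from 0 to 1 with each library left out. Over all tested genes, 64 were called higher as reported, 148 under quantile normalization, 689 under median-ratio scaling, 115 with FPKM and 23 with the replicate block, and 14 to 105 with each library left out. In the other direction 4834 were called lower as reported, 3078 with a pseudocount of 0.1, 2902 with a filter at 5 TPM, 205 under quantile normalization, 723 under median-ratio scaling, 40 under cyclic loess and 1726 with the replicate block, and 865 to 8273 with each library left out. The split between higher and lower calls thus depended on scaling. The rescaled fits have a median change of all genes near 0 (-0.03 under quantile normalization, -0.08 under median-ratio scaling and -0.01 under cyclic loess) in place of -1.73; the cause of the lost calls was not tested. The difference in the Fcgrt to B2m ratio, -0.98 as reported, turned to 0.43 between the M libraries and ranged from -2.06 to 0.10 with each library left out. The differences in the ratio of Fcgr2b to the activating receptors ranged from -3.02 to -2.96 with each library left out.

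The title start was used as a replicate block only as an alternative: deviations from the group means of the YFP+ M and YFP- M libraries had a correlation of -0.01 across genes, which does not show the libraries to be paired. The study used male and female mice, and whether the starts stand for sex is not stated in the labels. When a library was left out, the lone library of its group was assumed to vary like the others. Depth in reads is unknown, so no counting interval is given, and 2 libraries per group cannot reach an exact permutation p below 0.333.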
